A study of Homo sapiens with 2 samples.

Results

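The genes described here encode the proteins of the cytosolic ribosome. They were chosen by name: every probe set paired with exactly 1 gene symbol in the platform annotation was taken where that symbol names a protein of the large subunit (RPL, with RPLP for the acidic stalk proteins) or of the small subunit (RPS, with RPSA). Kinases of the RPS6K family and pseudogenes were left out. This gave 57 of 19775 genes and 118 of 54675 probe sets, with 36 genes of the large subunit and 21 of the small subunit. The samples came from stably transfected C33-A, a human cell line established from a cervical carcinoma, with an epithelial morphology. The CA9 line was transfected with the full-length human cDNA of CA 9, which encodes carbonic anhydrase IX, and its control, the vector line, with the empty vector. Both grew as adherent cells in RPMI with serum (10%), antibiotics (1%) and CO2 at 5%, and RNA was taken on day 4 after seeding. Each line has 1 array, and whether it is 1 clone or a pool is not stated in the labels.

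The cytosolic ribosome joins a small subunit, which holds the mRNA and decodes it, to a large subunit, which forms peptide bonds and passes the growing chain through an exit tunnel. Ribosomal proteins are made in matched amounts, and their mRNAs are among the most abundant of a dividing cell. These mRNAs begin with a tract of pyrimidines at their very first base, the 5' terminal oligopyrimidine or TOP motif, through which growth signals acting on mTOR control their translation. Several ribosomal proteins that are not bound in a ribosome, RPL5 and RPL11 foremost, bind MDM2 and so link ribosome assembly to p53.

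Since the TOP motif is what sets these genes apart from most others in sequence, the start sites of 12 of them are shown. They were taken from RefSeq annotation of GRCh38.p14, from 35 bases before the annotated start to 20 bases after it, 5' to 3' on the gene's own strand, with the unbroken run of C and T that holds the pyrimidine start in capitals. The genes were picked to show the longest run, genes at both ends of the range of differences, a paralog, and genes without a run.
RPL39 (chrX:119791611-119791665, minus strand): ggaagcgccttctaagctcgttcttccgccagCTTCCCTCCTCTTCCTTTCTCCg
RPL34 (chr4:108620541-108620595, plus strand): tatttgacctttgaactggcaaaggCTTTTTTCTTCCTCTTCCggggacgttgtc
RPS19 (chr19:41860220-41860274, plus strand): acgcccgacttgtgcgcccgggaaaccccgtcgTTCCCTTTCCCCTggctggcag
RPL35 (chr9:124861938-124861992, minus strand): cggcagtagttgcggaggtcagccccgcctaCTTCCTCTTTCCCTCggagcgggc
RPL37A (chr2:216498809-216498863, plus strand): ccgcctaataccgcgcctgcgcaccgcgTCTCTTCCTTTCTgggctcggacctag
RPS27 (chr1:153990727-153990781, plus strand): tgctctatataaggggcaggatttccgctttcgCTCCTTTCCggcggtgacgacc
RPL36AL (chr14:49620607-49620661, minus strand): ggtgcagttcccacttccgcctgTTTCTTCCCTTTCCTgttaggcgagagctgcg
RPL12 (chr9:127451387-127451441, minus strand): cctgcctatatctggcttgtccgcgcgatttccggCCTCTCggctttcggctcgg
RPL3 (chr22:39319604-39319658, minus strand): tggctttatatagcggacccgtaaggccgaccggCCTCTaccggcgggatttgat
RPS4X (chrX:72277229-72277283, minus strand): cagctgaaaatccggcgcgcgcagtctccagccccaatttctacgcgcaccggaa
RPS27L (chr15:63157458-63157512, minus strand): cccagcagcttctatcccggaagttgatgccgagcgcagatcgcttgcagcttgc
RPL10L (chr14:46651762-46651816, minus strand): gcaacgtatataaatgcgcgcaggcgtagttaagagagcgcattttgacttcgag

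The run of RPL39, whose protein lines the exit tunnel, was the longest of those found, at 22 bases, and the median run was 12 bases. RPL3, which reaches towards the peptidyl transferase centre, had a run of 5 bases. No run was found at the annotated starts of RPS4X, RPS27L and RPL10L, which says only that this window does not hold one at that start.

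Of the 57 genes, 49 matched the promoter table by symbol. RPL3L, RPL7, RPL8, RPL23A, RPL30, RPL37, RPL39L and RPS15A did not. A pyrimidine start was counted where the annotated first base was a C followed by at least 4 bases that were each C or T. It was present in 33 of the 49 genes (67.3%), against 4.04% of all 27305 promoters in the table, 1 per gene symbol, and 4.95% of the promoters of measurable genes. Within 5 bases on either side of the annotated start it was present in 41 of 49 (83.7%), against 21.1% of all promoters. At the first transcribed base itself, 79.6% of the ribosomal protein genes had a C or T, against 22.6% of all promoters, most of which start with a purine. Farther upstream, from 100 to 51 bases before the start, the mean shares were 50.5% and 49.7%.

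**Figure D1:**
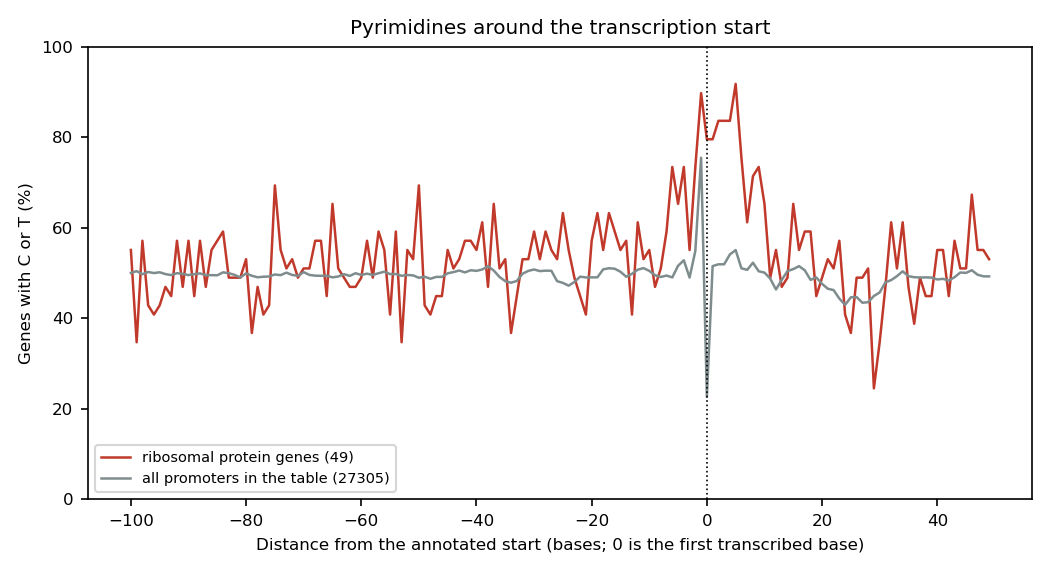
Share of genes with a C or T (%) at each distance from the annotated start (bases, 0 is the first transcribed base), for 49 ribosomal protein genes and for all 27305 promoters in the table. At the first base the ribosomal protein genes stood at 79.6% and all promoters at 22.6%, while over 100 to 51 bases upstream they averaged 50.5% and 49.7%.

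Other short motifs were searched on both strands of the 300 bases from 250 before to 50 after the start. CCGGAAG, a site of ETS factors such as GABPA, was in 36.7% of the ribosomal protein promoters and in 10.7% of all promoters. CTTTCC, which can lie within the pyrimidine run but also apart from it, was in 46.9% against 26.3%. ACGTG, the core of hypoxia response elements, was in 30.6% against 21.6%, and CACGTG, the E-box bound by MYC and MAX, which contains ACGTG, was in 4.08% against 7.43%. TATAAA was in 8.16% against 11.95%. The share with AAGATGGC, a site of YY1, was 8.16% against 3.03%, and that with GGGCGG, a site of SP1, was 57.1% against 44.6%. Median G and C content was 59.3% in the ribosomal protein promoters and 58.3% in all promoters. Among promoters of measurable genes, GGGCGG was in 66.6% and TATAAA in 6.10%, so that against these the ribosomal protein promoters stood lower for GGGCGG and higher for TATAAA. The other motifs kept their order, with CCGGAAG in 17.4%, CTTTCC in 25.9%, ACGTG in 25.7%, CACGTG in 10.0% and AAGATGGC in 4.97%. A match describes the letters and does not show binding.

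The measured values are the authors' intensities, 1 per probe set and array, on a linear scale, and a difference is the log2 value in the CA9 line less that in the vector line. A gene was represented by its brightest probe set, and it was called measurable if the higher of its intensities lay above 40.8, the median over every probe set that is no control. That held for 56 of the 57 ribosomal protein genes and for 13823 of all 19775 genes. RPL36A was the exception, with 25.9 in the CA9 line against 25.3 in the vector line in its only probe set of a single symbol. The arrays' own medians were 41.8 (CA9 line) and 40.0 (vector line). The transgene CA9 was not analysed here, so the labels were not checked against it. Of the epithelial markers KRT8, KRT18, KRT19, KRT5, KRT7, EPCAM and CDH1, EPCAM and CDH1 lay below 40.8 in both lines. KRT8, KRT18, KRT19 and KRT7 had differences from 0.16 to 0.57, the highest KRT8 at 101 in the CA9 line against 68.3 in the vector line, and KRT5 had one of -0.30. PAX8 and CDKN2A were listed with these markers. PAX8 had 143 in the CA9 line against 167 in the vector line (-0.22). CDKN2A, a cell cycle inhibitor, stood at 2659 and 2739, and the mesenchymal gene VIM at 2867 and 1131. Of the markers of other cell types, PTPRC, CD14, COL1A1 and PECAM1 ranged from 30.1 to 164 in the CA9 line and from 36.9 to 170 in the vector line. With 1 array per line no test, p-value or standard error is possible, and any difference includes the spread between cultures.

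The ribosomal protein genes had nearly the same signal in both lines. Of the 56 measurable genes, none differed by 2-fold or more, where 0.651% of all measurable genes were higher and 0.694% lower by that size in the CA9 line. A smaller size was counted too, a log2 difference of 0.32 or more in either direction. By that size 3 genes were higher (RPL3L, RPLP2 and RPL27A) and 1 was lower (RPL3), against 16.2% and 17.7% of all measurable genes. With probe sets of several symbols included, RPL3L and RPL3 kept their calls and RPLP2 and RPL27A lost theirs. At 1.5-fold, RPL3L and RPLP2 were higher and no gene was lower, against 5.29% and 4.74%. The median difference of the 56 genes was -0.05 and that of all measurable genes was -0.03.

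**Figure D2:**
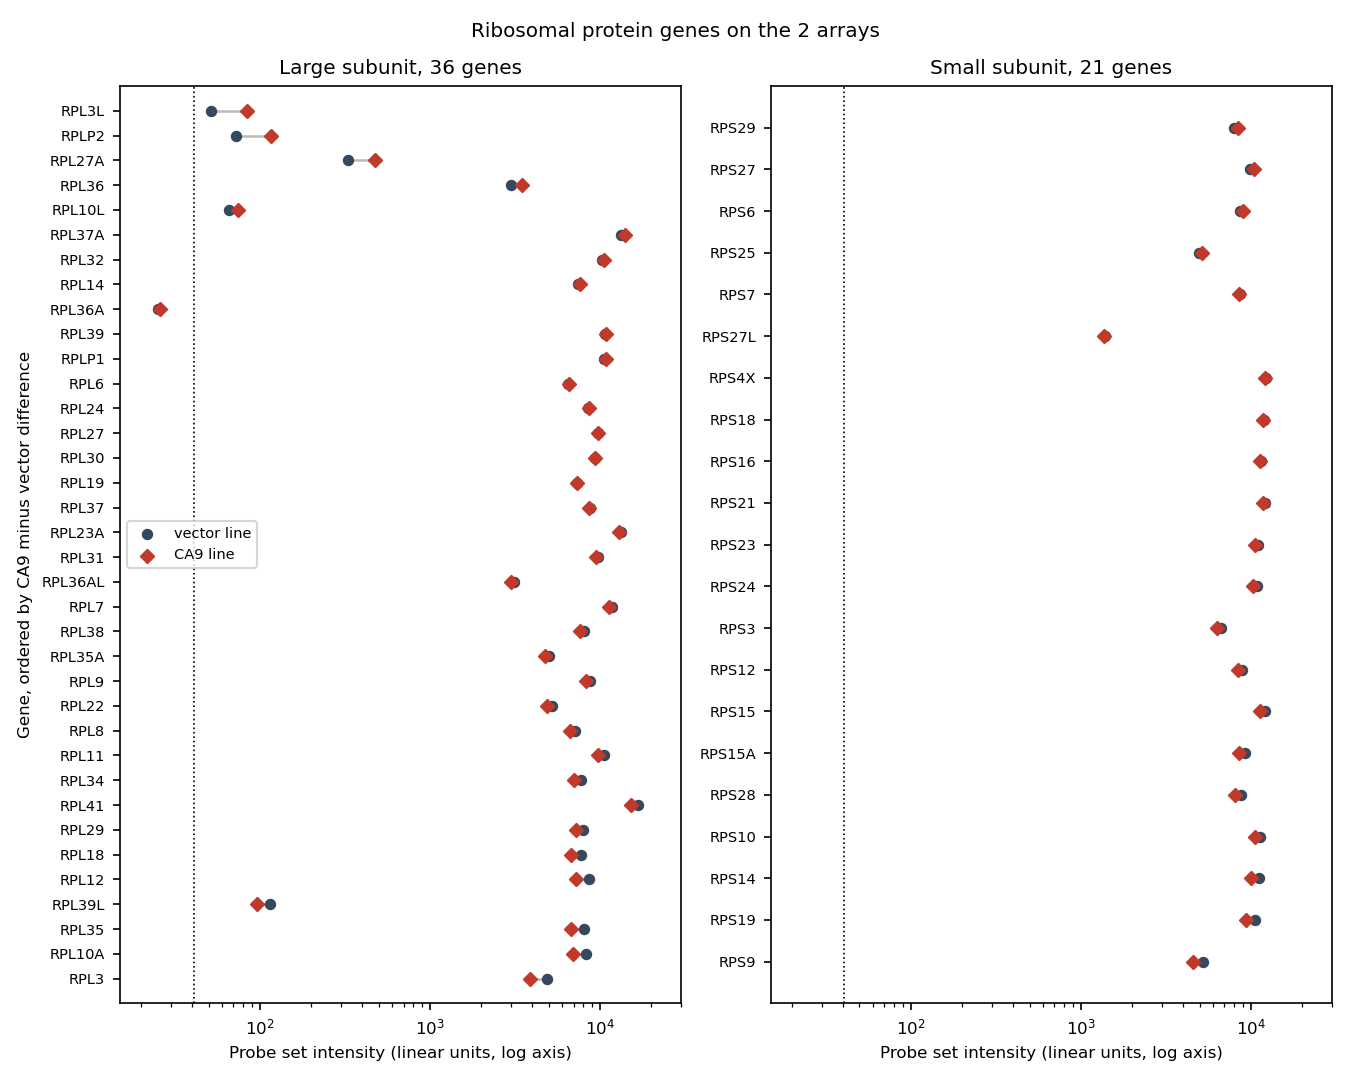
Intensity of each ribosomal protein gene (linear units on a log axis) in the CA9 line (diamonds) and the vector line (circles), 36 large subunit genes at left and 21 small subunit genes at right, ordered by the difference; the dotted line is the intensity of 40.8. The symbols of most genes overlap, and the widest gaps are those of RPL3L, RPLP2 and RPL27A.

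The direction of the family was not settled by these arrays. As deposited, 39 of the 56 genes lay below 0, where 52.97% of all measurable genes did. With equal medians for both arrays, which lowers every gene by the same amount, 48 lay below 0 and the median was -0.11. After quantile normalization 26 lay below 0 and the median was 0.00, and after removal of a loess trend 35 did, with a median of -0.03. Across these 4 scalings, 26 genes stayed below 0, 8 stayed above 0, 20 changed sign, and RPL31 and RPS24 went from below 0 to exactly 0. Without the scaling to equal medians, 11 genes changed sign. The 8 that stayed above 0 were RPL3L, RPLP2, RPL27A, RPL36, RPL10L, RPL37A, RPS29 and RPS27.

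The bright genes of the family had a narrower spread than other genes over their whole signal range, but not between the quartiles of their own signal. The representing probe sets fell into 51 genes with a mean intensity of 1377 or more and 5 genes at 394 or less, a division made after the values were seen. The differences of the 51 genes had an SD of 0.10 and ran from -0.34 to 0.22. The 645 other measurable genes in that signal range had an SD of 0.25 and a median of -0.05, against -0.06 for the 51. The SDs were 0.10 and 0.25 after quantile normalization and after loess removal as well, and equal medians cannot change an SD. Between the lower and upper quartiles of the signal of the 51, 25 of these genes had an SD of 0.098 and the 15 other genes there one of 0.11, so that at this closer match the spreads were nearly equal. Among these 645, 5.27% were higher and 7.60% lower by a log2 difference of 0.32 or more. Of the 51, none was higher and RPL3 was lower by that size. Above a mean intensity of 5000, where signals come closest to the top of the scale, 45 ribosomal protein genes had an SD of 0.087 and 51 other genes one of 0.20. Of these, 33 of the 45 and 20 of the 51 lay below 0. The part of near-saturated signal in the narrow spread was not tested.

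**Figure D3:**
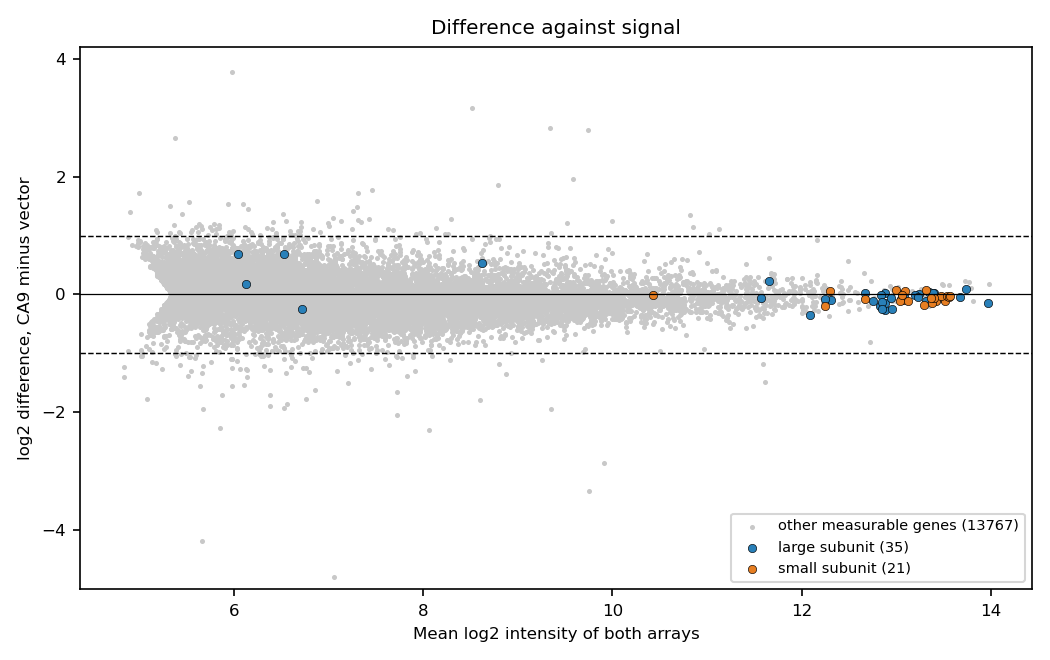
Difference between the lines (log2, CA9 minus vector) against the mean log2 intensity of both arrays, for 13767 other measurable genes (grey) and 56 ribosomal protein genes (colour by subunit); dashed lines mark 2-fold. Most ribosomal protein genes form a flat cluster at the bright end, and none reaches a dashed line.

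The ribosomal protein genes filled the upper end of each array. Of the 100 brightest probe sets on each array, 27 were of these genes, and of the 500 brightest 68 were. RPL41, which encodes the shortest ribosomal protein, was the brightest probe set of the vector array, at 16842, and stood at 15308 in the CA9 line, where it ranked 6. RPL37A had 14040.3 in the CA9 line against 13241 in the vector line. RPL23A, a protein at the exit of the tunnel to which the signal recognition particle docks, had 12852 and 13249. RPS4X, encoded on the X chromosome, had 12036.5 and 12231, and RPS21 had 11829.8 and 12174. Brightness depends on the probes as well as the mRNA, so these signals do not order the mRNAs of the genes. Across the 51 bright genes the log2 signals of both arrays had a Pearson correlation of 0.987, a description over genes that share the same RNA and arrays.

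The small subunit genes had a narrower spread than the bright large subunit genes. Their 21 differences ran from -0.19 to 0.08 with an SD of 0.078, and 17 lay below 0. The 30 bright genes of the large subunit ran from -0.34 to 0.22 with an SD of 0.12, and 21 lay below 0. Their medians were -0.05 and -0.06, and they lay 0.0095 apart, less than the SD within either subunit. Over all 56 genes the large subunit median was 0.0069 above that of the small subunit.

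In the small subunit, RPS9, which lies at the entry of the mRNA channel, had 4552 in the CA9 line against 5200.05 in the vector line, a log2 difference of -0.19 and the lowest of its subunit. RPS19, the gene most often mutated in Diamond-Blackfan anaemia, had 9404 and 10645 (-0.18). RPS9 had a second bright probe set at 1951 and 2424 (-0.31), and RPS19 one at 6641 and 7028 (-0.08). The SD between bright probe sets of the same ribosomal protein gene was 0.11. Both representing values lay farther from 0 than that, and the second value of RPS19 did not. This SD compares probe sets on the same arrays, so it does not measure the spread between cultures. At the other end, RPS29 had 8406 and 7949.6 (0.08) and RPS27 had 10448 and 9926 (0.07). Of the listed genes for proteins at the decoding site and along the mRNA channel, RPS3, RPS9, RPS14, RPS15 and RPS23 were measured. Their differences ran from -0.19 to -0.05. RPS12, listed with these genes, had 8363 and 8890 (-0.09). RPS6, the substrate of the S6 kinases downstream of mTOR, had 8940.01 and 8577 (0.06), with another 2 bright probe sets at -0.06 and -0.09.

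In the large subunit, RPL3 had the lowest difference of the family. It stood at 3875 in the CA9 line against 4906 in the vector line, a difference of -0.34 or 1.27-fold, and over the scalings it ran from -0.40 to -0.30, the last after loess removal and short of 0.32. Among probe sets of a single symbol this rests on 1, of the _x_at kind, whose probes can also bind other transcripts. A brighter probe set that carries further symbols beside RPL3 stood at -0.38. RPL10A, the protein of the mobile stalk beside the exit site, had 6910.1 and 8249 (-0.26), and its second probe set stood at -0.15. RPL35, at the tunnel exit, had 6745.5 and 8005 (-0.25). RPL12, at the base of the acidic stalk, had 7274 and 8595 (-0.24), with a second probe set at -0.18, and RPL18 had 6765 and 7782 (-0.20). These 5 genes were lower in the CA9 line under each scaling, by 1.15-fold to 1.27-fold as deposited. RPL36 was the highest of the bright genes, at 3492 in the CA9 line against 2993 in the vector line (0.22).

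By their brightest probe sets, the other measured genes for proteins of the tunnel and its exit lay closer to 0 than RPL35. RPL19, RPL22, RPL23A and RPL31 had differences from -0.10 to -0.01, and RPL39 had 10878 and 10679 (0.03). RPL24, listed with these genes, stood at 0.004. Some dimmer probe sets lay farther from 0 than RPL35, those of RPL24 (-0.35), RPL22 (-0.26 and -0.30) and RPL31 (-0.51 and -0.45). The remaining ones of RPL22 lay between -0.10 and -0.06. RPL11, the partner of RPL5 in the 5S ribonucleoprotein that binds MDM2, had 9748 and 10587.5 (-0.12). RPL5 has no probe set of a single symbol. Of 19 listed genes of Diamond-Blackfan anaemia, 14 were measured, 11 of them below 0, with a range from -0.25 to 0.08. RPLP1, an acidic protein of the stalk that recruits elongation factors, had 10822 and 10630.3 (0.03).

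The 5 dim genes spread more widely, with differences from -0.25 to 0.69 and an SD of 0.40. RPL3L, the paralog of RPL3 in heart and skeletal muscle, had 83.7 in the CA9 line against 51.8 in the vector line, 1.62-fold higher. RPLP2, the partner of RPLP1 in the stalk, had 117 and 72.8 (0.69) and a second probe set below 40.8 in both lines. RPL27A had 472 and 328 (0.53). RPL10L, the paralog of RPL10 that is expressed in testis, had 74.3 and 65.7 (0.18), and RPL39L, a paralog of RPL39, had 96.7 and 115 (-0.25). Apart from RPL27A, their higher intensities were at most 2.87 times the value of 40.8. For RPLP2 and RPL27A the annotation also lists brighter probe sets that carry further symbols. With these in use RPLP2 stood at 0.18 and RPL27A at -0.07, so neither gene passed 0.32. The low signal of these genes is thus that of their probe sets of a single symbol. At this low signal other genes spread widely too, since 20357 other probe sets in the range of the dim ribosomal ones had an SD of 0.39.

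Paralogs outside the naming rule can be set beside these. RPL22L1, a paralog of RPL22, had 7676 in the CA9 line against 7247 in the vector line (0.08), and RPL7L1 had 2005 and 1904 (0.08). RPL26L1 was lower in the CA9 line, at 1123 against 1433 (-0.35). Within the rule, RPL36AL, the autosomal paralog of the X-linked RPL36A, had 2984 and 3111 (-0.06). RPS27L, a paralog of RPS27 that p53 induces, had 1369 and 1384 (-0.02), with a second measurable probe set at -0.03. Its parent RPS27 stood at 0.07, so both lay within 0.32 of 0.

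Probe sets of the same gene differed among themselves. Of the 118 probe sets 106 lay above 40.8, and 30 genes had more than 1 of these. In 13 genes all lay below 0, in RPLP1 all lay above 0, and in 16 the signs were mixed. The pooled SD between probe sets of a gene was 0.23 for the ribosomal protein genes and 0.31 for all genes. Between bright probe sets of a gene, at a mean intensity of 1000 or more, it was 0.11, and between those below it was 0.43. RPL37A spanned the widest range. Its bright probe set had a difference of 0.08, and the dimmer ones had 482 against 285 (0.76) and 64.6 against 94.9 (-0.55). In RPS10, 3 bright probe sets lay between -0.11 and -0.01, and the dim one had 221 in the CA9 line against 138 in the vector line (0.68). RPL22, which binds RNA and is dispensable for translation, had 5 probe sets above 40.8, all between -0.30 and -0.06.

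**Figure D4:**
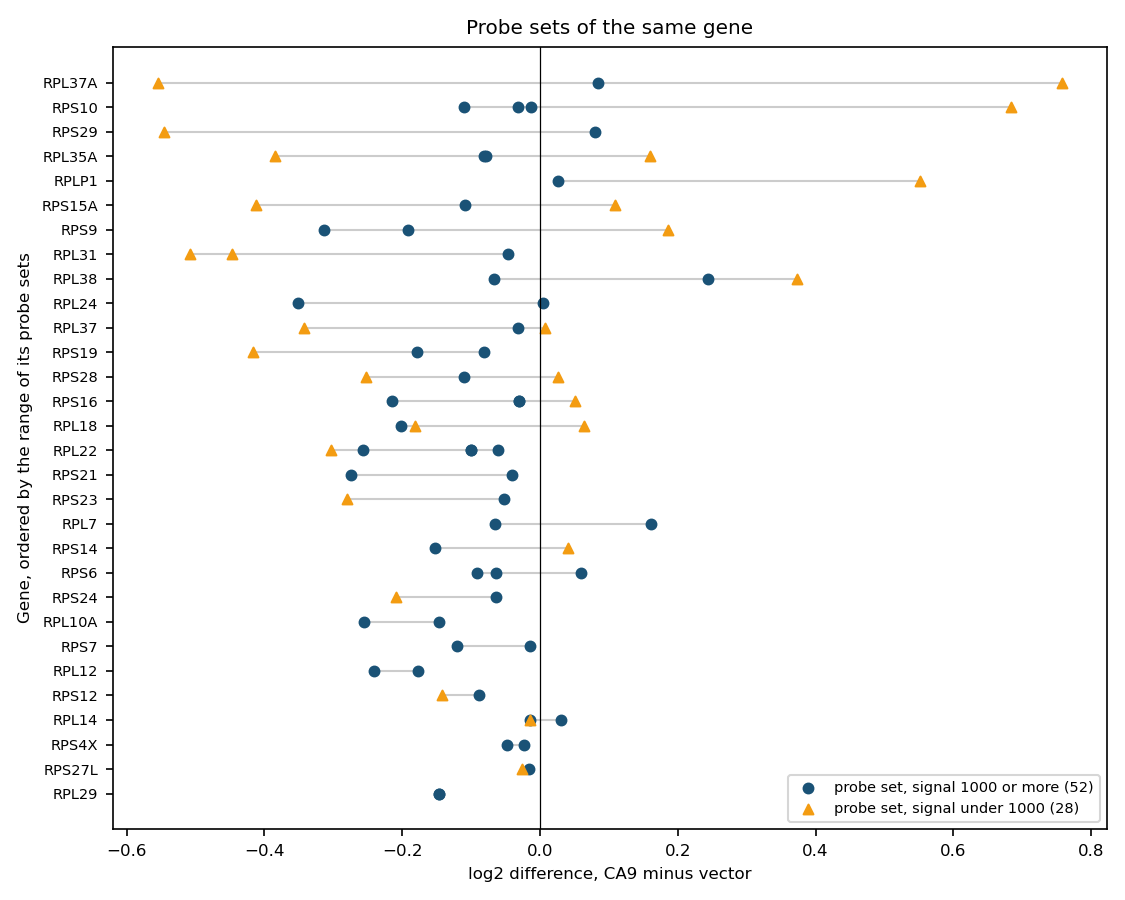
Log2 difference (CA9 minus vector) of each probe set above the intensity of 40.8 in the 30 ribosomal protein genes that have more than 1, circles for 52 bright and triangles for 28 dim probe sets, with genes ordered by their range. Triangles reach from -0.55 to 0.76, while circles stay between -0.35 and 0.24.

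The kind of probe set moved with the difference. Affymetrix names a probe set _at where its probes are meant to be unique to a transcript, and _s_at or _x_at where they may bind several. Of the bright ribosomal probe sets, 13 of the _at kind had a median of -0.13 and 12 of them lay below 0. The 32 bright _s_at had a median of -0.04 and the 28 bright _x_at one of -0.06. Of other probe sets in the same signal range, 356 of the _at kind had a median of -0.06. In all 4 genes that had bright probe sets of both sorts, the _at one was lower. It was also the dimmer one on both arrays, so kind and signal cannot be told apart in these genes. RPL24, for instance, had 5798 against 7399 (-0.35) by its _at probe set and 8563 against 8540.47 by its _x_at. The others were RPS21 at -0.27 against -0.04, RPL22 at -0.26 against -0.10 and RPS16 at -0.22 against -0.03. With genes represented only by probe sets of the _at kind, 27 ribosomal protein genes remained, and their median was -0.20. By the size of 0.32, 2 of the 27 were higher and 6 lower. Over all measurable genes under that choice the median was -0.04, with 1666 higher and 2088 lower by that size. With the brightest probe set of any kind, 16.2% and 17.7% of all measurable genes passed it. Signal changed with the kind, since 14 of the 27 were then represented by dim probe sets. Those 14 had a median of -0.23 and held the 2 higher and 5 of the lower genes, while the 13 bright ones had a median of -0.13 and held 1 lower gene. The part of cross-hybridisation to pseudogene transcripts or other mRNAs was not tested.

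The probe sets left out for carrying several symbols had a lower median, -0.10 against -0.06 for the 106 probe sets of a single symbol above 40.8. There were 64 of them in which exactly 1 symbol was a cytosolic ribosomal protein gene, mostly beside small nucleolar RNAs encoded in its introns, and they covered 22 genes, 15 of which had no probe set of a single symbol. Of these, 58 lay above 40.8, with a median of -0.10, 44 below 0, and none at 2-fold. By 0.32 or more 1 was higher and 5 lower, against 16.2% and 17.7% of all measurable genes. With them, 72 genes could be measured, the median was -0.06, and 1 gene in each direction passed 0.32, namely RPL3L, higher, and RPL3, lower and still the lowest of the family. Of the 4 genes called from probe sets of a single symbol 2 thus lost the call.

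The groups with and without a pyrimidine start overlapped. The 32 measurable genes with one at the annotated first base had a median difference of -0.06 and a range from -0.25 to 0.69. The 16 without one had a median of -0.02 and a range from -0.34 to 0.18. Genes with ACGTG in the promoter numbered 15 and had a median of -0.12, and the 33 without it had one of -0.03. Both ranges, from -0.34 to 0.04 and from -0.26 to 0.69, overlapped.

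The genes for proteins that work with the ribosome, in lists chosen with earlier results of these data known, stayed close to 0 as well. Of 16 measurable genes listed for a TOP motif in their mRNAs, mostly translation factors, 11 lay below 0 and the median was -0.08, with 1 higher and 1 lower by 0.32 or more, against 16.2% and 17.7% of all measurable genes. The lowest was HNRNPA1, an RNA-binding protein, at 985 in the CA9 line against 1254 in the vector line (-0.35), and the highest was the histone chaperone NAP1L1 at 3707 and 2899 (0.35). Of the other bright probe sets of NAP1L1, 1 stood at 0.34 and the rest between -0.18 and 0.09. FAU, whose product is a fusion of a ubiquitin-like protein and the small subunit protein RPS30, had 5919 and 6495 (-0.13). Of 58 ribosome assembly factors 31 lay below 0 and the median was -0.03, with 3 higher and 3 lower by that size, both fewer than the 16.2% and 17.7% of all measurable genes. RIOK1, a kinase of late small subunit maturation, had 435 and 610.3 (-0.49), and NAT10, which acetylates 18S rRNA, had 741 and 517 (0.52). Of 12 listed host genes of small nucleolar RNAs only EPB41L4A-AS1 (-0.46) and ZFAS1 (0.22) were measurable. The other probe sets of ZFAS1 ran from -0.27 to 0.08, and the second of EPB41L4A-AS1 stood at 0.00.

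Among 29 genes of RNA polymerases I and III and their factors, which make the ribosomal RNAs, the median was -0.06, with 19 below 0. By 0.32 or more none was higher and 5 were lower, the latter near the 17.7% of all measurable genes. POLR1F, a subunit of RNA polymerase I, had 150 in the CA9 line against 318 and was 2.11-fold lower. It was the only gene of these lists, apart from the cell markers, past 2-fold, and its second probe set lay below 40.8 in both lines. Its difference was -0.98 after quantile normalization and after loess removal, which is short of 2-fold. TBP, the TATA-binding protein, had 169 and 234 (-0.47). Among 23 regulators of ribosomal protein gene expression, such as MYC and members of the mTOR pathway, 14 lay below 0, the median was -0.08, and by 0.32 or more 4 were higher and 3 lower, near the 16.2% and 17.7% of all measurable genes. The mTORC1 substrate AKT1S1 had 602 and 437 (0.46), with a second probe set at 0.30. MYCN had 66.6 and 48.5 (0.46), not far above 40.8. Its other probe sets above 40.8 ran from -0.03 to 0.51, and the rest lay below it in both lines. Of 9 measurable genes that report on or belong to the MDM2 and p53 axis, 7 lay below 0 and the median was -0.22. By 0.32 or more none was higher and 2 were lower, against 16.2% and 17.7% of all measurable genes. RRM2B, a p53-induced subunit of ribonucleotide reductase, was lowest at 97.1 against 149 (-0.62), followed by ZMAT3 at 124 against 162 (-0.38). The other probe sets of ZMAT3 above 40.8 stood at -0.21, -0.04 and -0.74.

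The genes of the mitochondrial ribosome, which translates the mRNAs of mitochondrial DNA, spread more widely than the bright cytosolic genes only. The SD of the 51 bright cytosolic genes was 0.10, and that of all 56 measurable ones was 0.19. All 75 of its listed protein genes were measurable, with a median of -0.08, an SD of 0.20 and a range from -0.56 to 0.41. By 0.32 or more, 2 were higher and 7 lower, against 16.2% and 17.7% of all measurable genes. The lowest were MRPS28, at 503 and 744 (-0.56), and MRPS16, at 473 and 683 (-0.53). Their median signal was 769, against 8623 for the bright cytosolic genes, and 3367 other genes in their own signal range had an SD of 0.29.

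**Figure D5:**
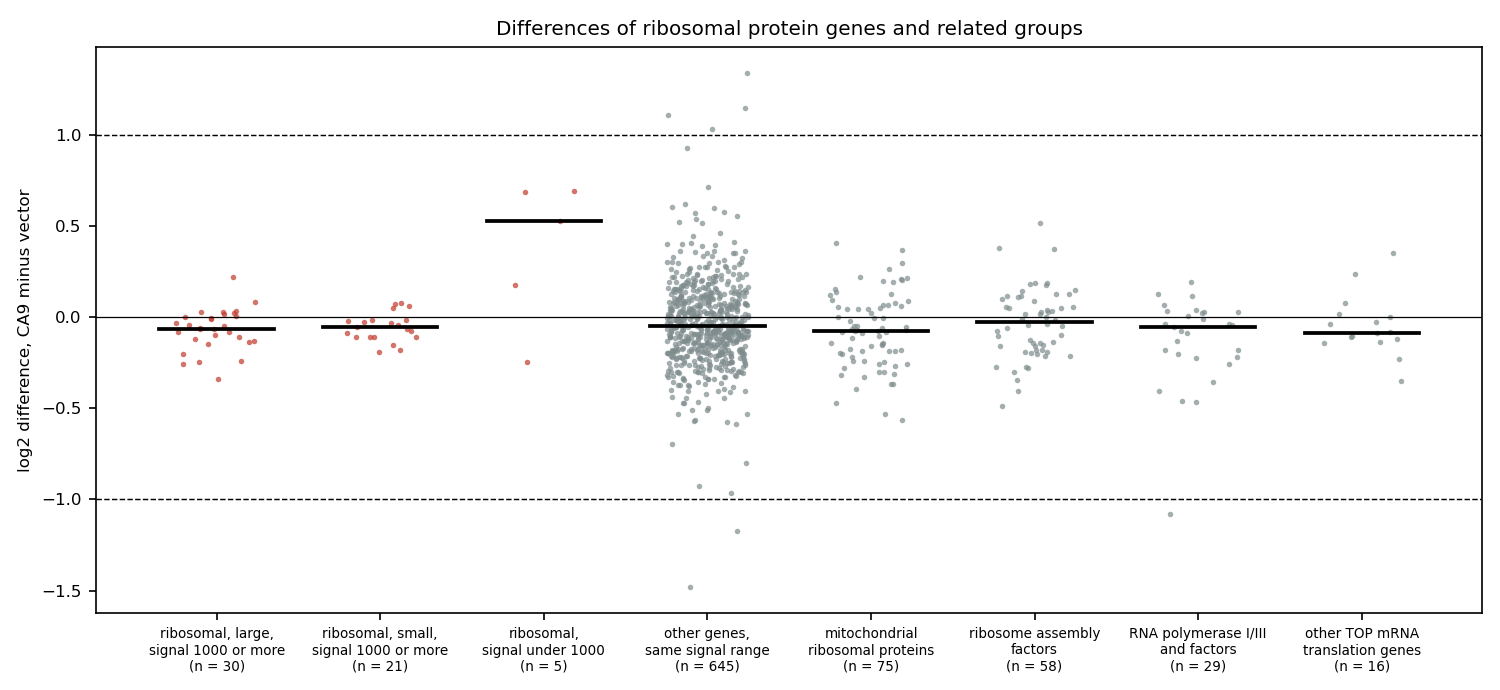
Log2 difference (CA9 minus vector) of each gene in 3 groups of ribosomal protein genes (red) and in other genes of the same signal range, mitochondrial ribosomal proteins, assembly factors, polymerase I and III genes and other TOP mRNA genes (grey); black bars are medians and dashed lines 2-fold. The bright ribosomal protein genes lie within -0.34 and 0.22, and the 5 dim ones reach 0.69.

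The control probe sets for the ribosomal RNAs themselves did not follow the ribosomal protein genes. The 3 probe sets for 18S rRNA had log2 differences from -2.15 to -0.92, and those for 28S rRNA ran from -2.75 to 0.29. At 18S the intensities were 99.9 against 189 at the 3' end, 58.1 against 187 at the 5' end and 40.6 against 180.4 in the middle. Ribosomal RNA has no poly-A tail and is primed poorly in this labelling, so these signals do not measure its amount in the cell. The GAPDH controls differed by -0.05 to 0.04 and those of ACTB by 0.17 to 0.24.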

How the data were processed

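The deposited table gives intensities for 1 array of each line. The authors made these intensities with RMA, per the submitters' processing notes; its version and probe definitions are not given in the sources used here. The values reach 17091 and so are linear, although RMA output is usually on log2, and log2 was taken without a pseudocount. Genes were named through the platform annotation, and Entrez identifiers updated symbols through RefSeq (GRCh38.p14), which matched all 118 ribosomal probe sets. Each gene was represented by the single-symbol probe set of highest mean log2 intensity. Calls were by size (a log2 difference of 0.32, 1.5-fold and 2-fold), since 1 array per line allows no test, and the number of arrays limits the precision.

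The named genes, fixed by rule, were the 8 highest and 8 lowest differences, the 5 brightest and 5 dimmest genes, paralogs, the stalk, 5S, ubiquitin-fusion and X-linked members, and the 2 genes of each other list farthest from 0. Further members are named as examples. Members and lists were chosen with earlier results of these data known. Alternatives covered the probe set, scaling, floor, pseudocount (50) and membership. The summary was tested on simulated data. Python 3.11.15, numpy 2.4.6, pandas 2.3.3, scipy 1.17.1, statsmodels 0.14.6 and matplotlib 3.10.9 were used.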

Additional observations from a re-analysis of the deposited data

Results flagged for a closer look

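Among the probe sets left out because they carry several symbols, 1 of the 58 above the floor was higher in the CA9 line than in the vector line by a log2 difference of at least 0.32. Of the same 58, 5 were lower by that size, and over all measurable genes the shares were 16.2% and 17.7%. The higher one drew attention as a signal above the control in data that the comparison did not use, and it has no name here.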

How the results depend on the processing

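No ribosomal protein gene reached 2-fold in either direction under any of 12 alternatives. The count at a log2 difference of 0.32 or more, 4 as reported, was 8 with genes represented only by probe sets not named _x_at, _s_at or _a_at, where 27 genes remained, and stayed within 1.5 times under 9 others. With those unique probe sets, 1666 of all measurable genes were higher and 2088 lower by that size. The ribosomal count was 1 without the genes under an intensity of 1000 and 2 with probe sets of several symbols, both chosen after seeing the data. The median difference, -0.05 as reported, was -0.20 with the unique probe sets, -0.11 with equal array medians, -0.030 after loess removal and 0.0011 after quantile normalization, so its size and sign are not settled. The gap between the large and small subunit medians, 0.0069 as reported, was -0.015 with the mean of all probe sets, -0.059 with the unique ones, 0.034 with the median of those above the floor, 0.0021 after quantile normalization, -0.0071 with the floor at the 75th percentile, 0.012 without paralogs, -0.0095 without the genes under 1000 and -0.014 with several symbols. The SD of the differences, 0.19 as reported, was 0.10 without the genes under 1000. Equal array medians changed the share of higher genes among all genes at that size from 47.9% to 35.3%, while the ribosomal counts stayed at 3 higher and 1 lower. No paired analysis was possible because each line has 1 array.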
